A study of Enchytraeus crypticus with 60 samples.

Results

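The 200 probes described here carried the highest signals of assembled transcripts in control worms of *Enchytraeus crypticus*, a small white oligochaete (potworm) that lives in soil and is used in ecotoxicology. They were chosen by the measured signal: among the gene probes detected on all 60 arrays whose identifier names a contig (a transcript assembled from several sequence reads), the 200 with the highest mean log2 signal relative to the array median over the 12 control arrays were taken, out of 11180 contig probes and 23179 detected probes in all. The comparisons below ask whether these high-signal transcripts moved when worms lived in soil with silver.

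Adult worms with a well-developed clitellum, the band that forms egg cocoons, were kept in LUFA 2.2 soil without food. Whole-body RNA of pools of 20 worms was hybridised, 1 pool and 1 colour per array. The 16 silver groups held worms exposed to silver nitrate (AgNO3), PVP-coated silver nanoparticles (PVP), non-coated silver nanoparticles (NC) or the dispersed silver nanomaterial NM300K, each at its EC50 and its EC20, the concentrations that reduce reproduction by 50% and 20%, for 7 d and for 3 d. The 4 control groups were un-spiked soil (CT) and soil mixed with Tween 20, the dispersant of NM300K (CTdisp), at 7 d and at 3 d. NM300K was set against CTdisp and the other materials against CT, each group being 3 biological replicates. The study names no strain, and pooled whole bodies average over all tissues, so that fewer cells of a type and less RNA per cell cannot be told apart.

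In an animal, the most abundant messenger RNAs usually belong to housekeeping work such as protein synthesis, energy metabolism, muscle and cytoskeleton, or to products secreted in bulk. Silver ions bind the thiol groups of proteins, and cells meet them with metal-binding and antioxidant proteins; nanoparticles release such ions and are also taken up as particles. The files name each probe by a contig and give neither gene names nor sequences, so which of these roles any of the 200 transcripts has is not given here, and no sequence is printed. The signal of a spot also depends on its probe, so the order of probes is an order of signals, not of transcript numbers.

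The first probe, contig02249, lay 12.20 log2 units above the array median in control worms. It was followed by contig01799, contig18578, contig04480, contig03151, contig01918, contig07432, contig14755, contig21535 and contig08319, the last of them 10.95 units above the median. The limit of 200 fell in a dense stretch: contig12990 (7.23) and contig23288 (7.23) were the last inside, and contig03803 (7.23) and contig12609 (7.22) the first outside. A further 235 probes made from single reads, which the choice left out, lay above the last of the 200. Choosing on the 6 CT arrays alone, or on the 6 CTdisp arrays alone, kept 193 of the 200 in each case.

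All 200 were well above background on all 60 arrays, and none of their spots was saturated. Their processed signals spanned 215 to 465658. The value of 215 was a single dim spot of contig06503, whose next dimmest array had 8576. For the median probe among them, the brightest array was 2.76-fold above the dimmest, 123 stayed within 3-fold and 20 spanned more than 10-fold. Their spread between replicate pools was small: the moderated SD had a median of 0.22 log2 units, against 0.35 over all detected probes. The spread among the 16 silver group means had a median of 0.21 for the 200 and 0.26 for all. In the plot of signal by rank, most of the 200 form a smooth band. A few long vertical lines mark probes that varied or that had a single dim spot. In 7 probes the dimmest array lay more than 4-fold below the next, which widened their ranges.

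**Figure D1:**
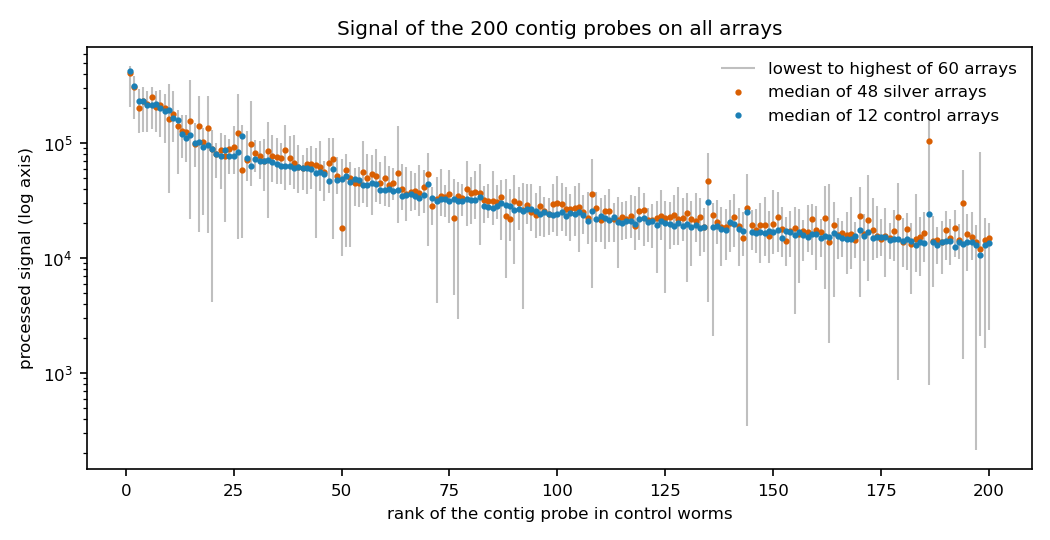
Processed signal (log axis) of the 200 contig probes by rank in control worms, with the median of the 48 silver arrays in orange, the median of the 12 control arrays in blue and a grey line for the range over all 60 arrays. Most ranges are narrow (median 2.76-fold), while rank 186, contig03804, has a silver median of 104044 and a control median of 24130. Both medians pool 7 d and 3 d. Its normalized log2 medians with silver and in controls were 16.94 and 16.68 at 7 d, and 14.98 and 10.42 at 3 d.

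Together the 200 probes held 27.3% of the summed signal of the detected probes in the median array (range 24.2% to 30.6%). The group means ran between 26.3% ± 2.07 for NM300K EC20 at 3 d and 29.0% ± 1.58 for AgNO3 EC50 at 7 d (SD, n = 3 each), and the controls lay between these, at 28.1% ± 1.49 for CT and 28.4% ± 1.70 for CTdisp at 7 d, and at 27.5% ± 0.74 for CT and 27.8% ± 1.86 for CTdisp at 3 d. The lowest and the highest silver group mean each differed from the mean of its own control by less than 1 SD. The 10 highest probes alone held 6.11% ± 0.69 with silver at 7 d and 7.21% ± 0.69 with silver at 3 d (SD, n = 24 each), against 7.21% ± 0.70 and 7.77% ± 0.62 in the controls at 7 d and 3 d (SD, n = 6 each). These shares are descriptions, because the control arrays chose the probes.

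**Figure D2:**
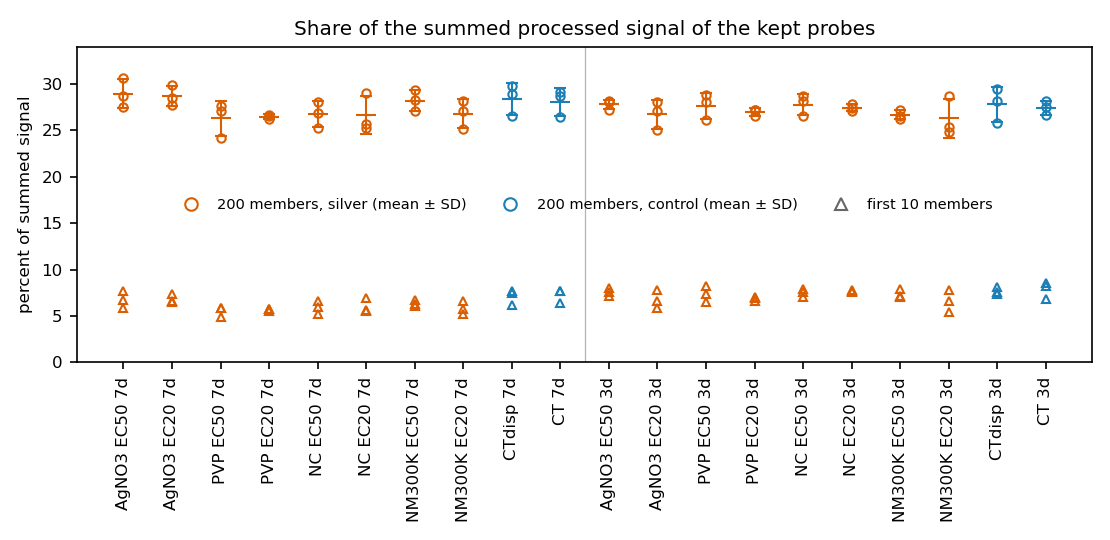
Percent of the summed processed signal of all detected probes that was held by the 200 probes (circles, with the group mean ± SD) and by the first 10 of them (triangles), for each of the 20 groups with 3 arrays each, silver in orange and controls in blue. The 200 probes stay between 24.2% and 30.6% on every array, and the first 10 between 4.88% and 8.54%.

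The composition of the set also changed little. Ranked by group mean, between 170 (PVP EC50 at 7 d) and 187 (AgNO3 EC20 at 3 d) of the 200 were also among the 200 highest contig probes of a silver group, and in the control groups between 182 and 186 were. Of the 200, 134 were in the highest 200 in all 20 groups. All 10 of the first probes were, and none of these fell below rank 23 in any group.

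Against the controls, the 200 probes were called mainly at 3 d, at the EC50 of PVP and NC, and as higher, as were all detected probes. The few calls with NM300K at 3 d were all lower. Calls were made by limma in one model over all arrays, Benjamini-Hochberg adjusted over all 23179 probes, at a false discovery rate of 5%. These comparisons share the control arrays that chose the probes, and the 3 materials set against CT share its arrays, so the counts are given beside the percentage of all detected probes called in the same direction and nothing is read from them. For PVP EC50 at 3 d, 120 of 200 were higher and 1 lower, with 46.3% of all probes higher and 0.893% lower. For NC EC50 at 3 d, 127 were higher and 0 lower (1 lower at an unadjusted p of 0.05), with 48.6% and 0.673% of all probes.

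At the EC20 the counts at 3 d were smaller. For PVP EC20, 20 were higher and 2 lower (all probes 16.4% and 0.242%), and for NC EC20, 7 were higher and 3 lower (12.4% and 0.384%). AgNO3 gave 37 higher and 2 lower at EC50 (17.6% and 0.38%), and 16 higher and 2 lower at EC20 (12.2% and 0.66%). A single control pool weighed on these counts: without CT replicate 3 at 3 d, the calls in both directions fell to 6 for AgNO3 EC50, 1 for AgNO3 EC20, 5 for PVP EC20 and 5 for NC EC20. Of all 23179 probes, 1691, 1338, 2215 and 1991 were then called in these comparisons, where 4168, 2975, 3857 and 2968 were before. NM300K at 3 d gave 0 higher and 5 lower at EC50 (0.513% and 1.32% of all probes) and likewise 0 higher and 5 lower at EC20 (0.557% and 0.893%). At an unadjusted p of 0.05, limma gave 5 higher and 32 lower at EC50 and 1 higher and 62 lower at EC20 for NM300K, and the methods' t-test called 0 in both. The share of all probes at that unadjusted limit is not given, so nothing is read from these unadjusted counts.

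At 7 d few of the 200 passed. PVP EC50 had 2 higher and 8 lower (5.48% and 2.05% of all probes), and PVP EC20 had 0 higher and 2 lower (1.17% and 0.617%). NM300K EC50 had 9 higher and 1 lower (5.32% and 0.418%), and NM300K EC20 had 0 higher and 1 lower (0.125% and 0.173%). For AgNO3 there were 0 higher and 1 lower at EC50 (0.069% and 0.0518%) and 0 higher and 1 lower at EC20 (0.129% and 0.0216%). NC had 0 higher and 1 lower at EC50 (1.04% and 0.371%) and at EC20 (0.466% and 0.341%). Where 0 were called higher at 7 d by limma, between 0 (NM300K EC20) and 21 (AgNO3 EC20) passed an unadjusted p of 0.05. The share of all probes at that limit is again not given, so nothing is read from these unadjusted counts either. The methods' t-test called 0 of the 200 in these comparisons. The probe called lower in all of the counts of 1 at this time was contig12635, described below.

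The counts at 3 d depended on the scaling of the arrays. The median log2 fold change of the 200 was 0.51 for PVP EC50 and 0.53 for NC EC50 at 3 d, beside medians of 0.55 and 0.58 over all probes. With Median normalization, which sets each array's median equal, the medians over all probes became 0.03 and 0.05, and the members called became 4 higher and 10 lower for PVP EC50, with 13.3% of all probes called, and 5 higher and 6 lower for NC EC50, with 9.69%. For the other comparisons with CT at 3 d, the same normalization left 0 higher and 1 lower for AgNO3 EC50 (0.781% of all probes called) and 0 higher and 2 lower for AgNO3 EC20 (3.74%). It left 2 higher and 5 lower for PVP EC20 (3.39%) and 2 higher and 9 lower for NC EC20 (3.26%). Of the comparisons at 7 d, NM300K EC50 changed its split most, to 0 higher and 1 lower (0.876% of all probes called). The median log2 fold change of the 200 then lay between -0.15 and 0.04 in the 6 comparisons with CT at 3 d.

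For NM300K EC20 at 3 d, the median of the 200 was -0.24 and that of all probes -0.01; 26 of the 200 had a fold change above 0. Median normalization gave -0.26 and -0.02. Under Quantile normalization the median of the 200 was 0.06 and that of all probes -0.00030. Quantile normalization gives every array the same distribution of signals, which holds the median of the brightest probes near 0. Its value therefore cannot decide whether the offset depends on the scaling. At 7 d, the medians for PVP EC50 and PVP EC20 were -0.08 and -0.12 for the 200, beside 0.10 and 0.05 for all probes. No test was made of these offsets.

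**Figure D3:**
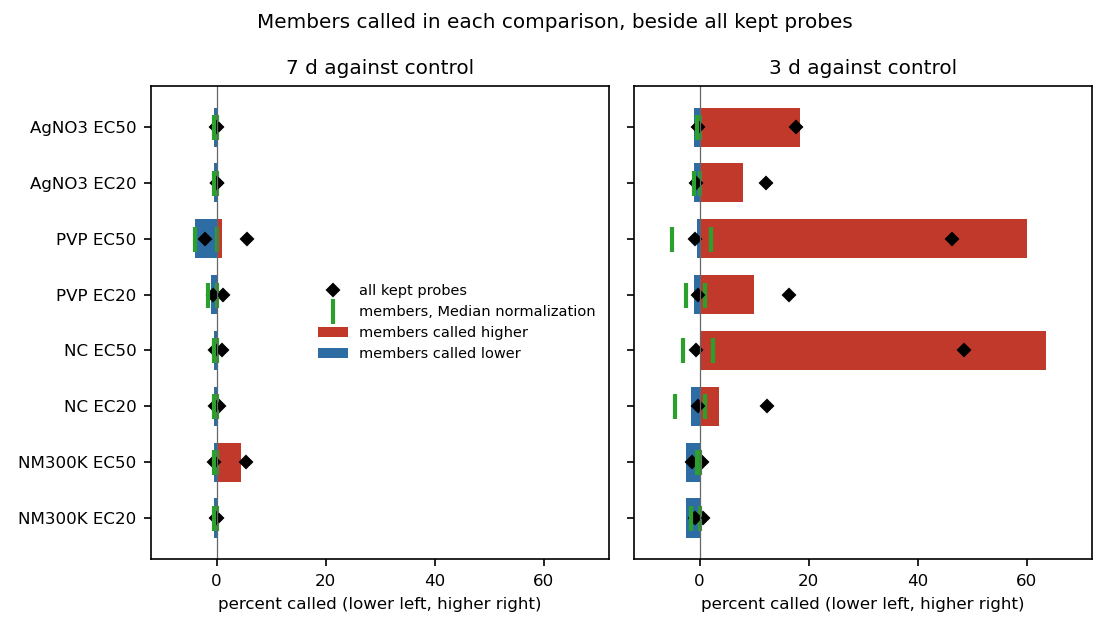
Percent of the 200 contig probes called higher (red, to the right) and lower (blue, to the left) than control for each material and effect concentration, at 7 d in the left panel and 3 d in the right panel. Black diamonds give the percent of all 23179 detected probes, and green ticks the 200 under Median normalization, which lie between 5% lower and 2.5% higher throughout, where the red bars reach 63.5%.

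Of the 200, 147 were called in at least 1 of the 16 comparisons, where 58% of all probes were. As higher somewhere 136 were called (54.3% of all probes), as lower somewhere 19 (5.78%) and in both directions 8 (2.07%). These counts come from the comparisons that share the arrays of the choice, and nothing is read from them. The probe called lower most often was contig12635, rank 50, in 14 comparisons; no other was called lower in more than 3. Its log2 signal was 14.51, 13.94 and 14.28 with AgNO3 EC50 and 14.89, 14.93 and 14.04 with AgNO3 EC20 at 7 d. With PVP at 7 d it was 13.52, 13.17 and 13.42 at EC50 and 13.61, 13.87 and 14.03 at EC20. The CT pools at 7 d, in contrast, had 16.24, 15.63 and 15.47, so that no silver pool overlapped them.

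The other materials lay in the same range at 7 d. Signals of contig12635 were 13.93, 13.53 and 13.23 with NC EC50 and 13.72, 13.17 and 14.25 with NC EC20. They were 13.88, 13.66 and 14.04 with NM300K EC50 and 14.22, 14.22 and 14.09 with NM300K EC20, against 15.21, 15.81 and 15.64 in CTdisp. Again every silver pool lay below every control pool.

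At 3 d contig12635 was lower as well, but closer to CT. AgNO3 gave 14.08, 14.72 and 14.37 at EC50 and 14.34, 14.48 and 15.08 at EC20. PVP gave 14.68, 14.42 and 14.60 at EC50 and 14.79, 14.32 and 14.64 at EC20, and NC gave 14.44, 14.98 and 14.91 at EC50 and 14.10, 14.21 and 14.32 at EC20. CT had 14.97, 15.62 and 15.33, and its lowest pool overlapped the highest of AgNO3 EC20 and NC EC50. NM300K gave 13.85, 13.89 and 13.67 at EC50 and 14.29, 14.17 and 13.75 at EC20, against 16.07, 15.64 and 15.91 in CTdisp, a wide gap.

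The fitted log2 fold change of contig12635 ran between -2.41 ± 0.25 (SE; limma adjusted p = 1.7e-08) for PVP EC50 at 7 d and -0.53 ± 0.25 (adjusted p = 0.069) for NC EC50 at 3 d. NC EC50 and AgNO3 EC20 at 3 d (-0.67, limma adjusted p = 0.062) were the 2 comparisons in which it was not called. It was below 0 in all 16 comparisons in the main fit and under each alternative fit, and it was called in between 7 (normexp background) and 16 of them (Quantile normalization; slide as a block). The largest of the NM300K fold changes was -2.07 ± 0.25 at EC50 and 3 d (limma adjusted p = 9.5e-07). With silver, the 7 d minus 3 d difference of contig12635 averaged -0.46 (limma F test, adjusted p = 5.1e-05). Since contig12635 was picked for its calls, its values are a description.

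contig07287, rank 89, was the other probe picked for calls of lower. It had 14.51, 14.04 and 14.13 with PVP EC20 at 3 d, against 14.66, 15.30 and 14.78 in CT, and the groups did not overlap (log2 fold change -0.69 ± 0.18, limma adjusted p = 0.0073). Its EC20 comparisons with AgNO3 (-0.54) and NC (-0.57) at 3 d were also called. At 7 d its fold changes were not called.

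The 2 probes picked for calls of higher, contig05168 (rank 135) and contig10430 (rank 172), were called in the same 6 comparisons, those with CT at 3 d. contig05168 had 16.08, 15.34 and 15.71 with PVP EC50 at 3 d, against 13.06, 12.83 and 12.08 in CT. This is a log2 fold change of 3.05 ± 0.52, or 8.31-fold (limma adjusted p = 1.1e-05). The other 5 called fold changes of contig05168 lay between 1.63 (AgNO3 EC50) and 2.47 (NC EC50).

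contig10430 had 14.75, 14.54 and 15.23 with NC EC50 at 3 d, against 13.30, 12.79 and 12.68 in CT, with no overlap (log2 fold change 1.92 ± 0.40, limma adjusted p = 0.00018). The other 5 called values lay between 1.23 and 1.47. Under Median normalization, contig05168 kept 4 calls of higher. Leaving out single arrays gave between 4 and 7 calls for contig05168 and between 2 and 6 for contig10430.

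contig03804, rank 186, varied most among the silver groups (SD of the 16 group means 1.5). Its values at 3 d differed between pools of the same group. They were 17.21, 16.72 and 16.87 with PVP EC50 and 13.15, 16.60 and 16.60 with PVP EC20. With NC they were 12.10, 17.09 and 16.55 at EC50 and 16.41, 15.62 and 13.996 at EC20. In NC EC50, 1 pool thus lay more than 4 log2 units below the other pools.

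With AgNO3 at 3 d, contig03804 had 13.04, 15.57 and 10.72 at EC50 and 11.83, 15.37 and 11.09 at EC20, against 12.65, 10.34 and 10.49 in CT. NM300K gave 14.59, 15.83 and 13.11 at EC50 and 14.13, 14.56 and 12.49 at EC20, against 9.58, 10.11 and 13.71 in CTdisp. The AgNO3 pools overlapped the CT pools, as did NC EC50 through its pool at 12.10, while the PVP and NC EC20 pools did not. The NM300K pools overlapped those of CTdisp. The fold changes called at 3 d were those of PVP EC50 (5.78 ± 1.04 log2 units, limma adjusted p = 2.6e-05), PVP EC20 (4.29), NC EC20 (4.18) and NC EC50 (4.08).

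At 7 d contig03804 was high in all pools, between 16.40 and 17.22 over the 24 silver pools (median 16.94) and between 15.20 and 17.00 over the 6 control pools (median 16.68). At 3 d the 24 silver pools spanned 10.72 to 17.21 (median 14.98) and the 6 control pools 9.58 to 13.71 (median 10.42). Its rank among contig probes therefore depended on time, and it reached the limit of 200 in 16 of the 20 groups.

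contig05168 followed it. Over the 48 silver arrays their Pearson correlation was 0.91, and it was 0.88 over the 24 silver arrays at 3 d and 0.28 over the 24 at 7 d. These are descriptions over arrays that share groups and times. The other probes most like contig03804 were contig10760 (0.90) and contig11280 (0.84). At 3 d, contig05168 lay between 12.91 and 16.08 with silver (median 14.88) and between 12.08 and 14.92 in controls (median 12.70), and at 7 d between 15.22 and 15.96 with silver (median 15.56) and between 15.08 and 15.98 in controls (median 15.50).

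**Figure D4:**
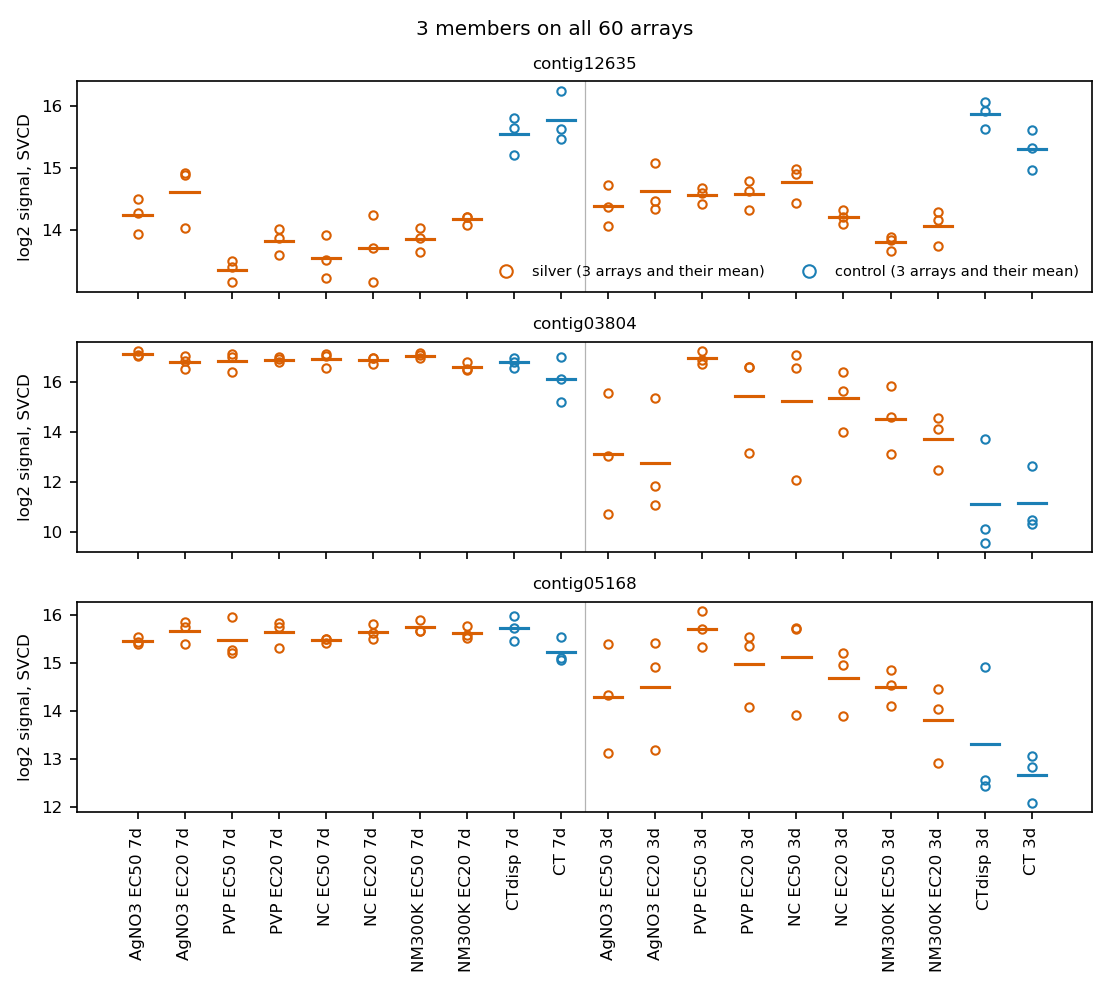
Log2 signal after normalization of contig12635, contig03804 and contig05168 on all 60 arrays, with the 7 d groups left of the grey line and the 3 d groups right of it. Circles are arrays and bars are means of 3, silver in orange and controls in blue. contig12635 is lower with silver at both times, while contig03804 spans 9.58 to 17.21 over the pools at 3 d and 15.20 to 17.22 at 7 d.

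At the other end, contig24039 (rank 59) varied least among the silver groups, with an SD of the 16 group means of 0.13. Its group means lay between 15.20 with NM300K EC20 at 3 d and 15.65 with NC EC50 at 3 d. The probe most like it over the 48 silver arrays was contig20924 (r = 0.94).

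The contrasts of EC50 with EC20 use no control array, so the values that chose the probes do not enter these differences. The control arrays do share in the normalization and in the estimate of the spread. In one F test over 8 contrasts (4 materials at 2 times), 30 of the 200 were called, where 6.67% of all probes were (limma, false discovery rate 5%). All 30 had a mean difference above 0, as had 189 of the 200, whose median difference was 0.16 log2 units beside 0.08 for all probes. The count did not hold: Median and Quantile normalization and slide as a block each left 0, and leaving out single arrays gave between 0 and 61. Under Median normalization 3 of all the probes passed this test.

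Many of the 200 differed between 7 d and 3 d. Longer exposure came together with a longer time without food in these contrasts. In the 8 contrasts of 7 d with 3 d within a silver group, which again use no control array, 117 of the 200 were called, where 38.9% of all probes were (limma F test). Of these, 44 had a mean difference above 0 (22.9% of all probes) and 73 below 0 (16% of all probes). Median normalization left 42 called, 12 above and 30 below 0, with 18.9% of all probes called, and Quantile normalization 49, 18 above and 31 below 0, with 20.8%. The split turned round with slide as a block (53 above and 38 below 0, with 35.6% of all probes called), without a filter (18 and 10, with 12.3%) and with the normexp correction (11 and 1, with 60.4%). The 200 also had the smaller spread between replicates given above, whose part in these shares was not tested.

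Without silver, 46 of the 200 were called between 7 d and 3 d in the CT and CTdisp controls (F test over 2 contrasts), where 23.4% of all probes were. Of these, 31 had a mean difference above 0 and 15 below 0 (19.1% and 4.29% of all probes). Median normalization gave 13 above and 26 below 0, and Quantile normalization 22 and 25, with 14.5% and 15.2% of all probes called. This test uses the arrays that chose the probes, though not the mean that chose them. Between CTdisp and CT, 2 of the 200 were called (2.07% of all probes). This count became 0 without CT replicate 3 or CTdisp replicate 1 or 3 at 3 d, 1 without CT replicate 1 at 3 d or CTdisp replicate 2 at 7 d, and 9 without CTdisp replicate 2 at 3 d.

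The largest changes with time belonged to 9 probes whose mean difference with silver exceeded 1 log2 unit, and all 9 were higher at 7 d. The mean differences lay between 1.17 and 2.24, and no probe of the 200 fell by as much (the lowest mean was -0.77, for contig02370, which was not called). All 9 were called with silver, and all 9 were called without silver too. They were picked by their difference with silver on these same arrays, so their calls with silver, in any fit, are descriptions. The 9 were called with silver under each of the 9 alternative fits, with mean differences between 1.0 and 2.36. Without silver, 8 of them were called under Median normalization, without a filter and with slide as a block, and 4 with the normexp correction.

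Of the 9, 7 belonged to one group of 8 probes, ranks 15 to 179, that moved closely together over the 48 silver arrays (median pairwise r = 0.92). contig14595, named here after its values were seen, had the largest mean difference in this group. Its log2 signal lay between 14.77 and 15.999 in the 24 silver pools at 7 d (median 15.51) and between 12.32 and 14.89 at 3 d (median 13.76), with 1 pool at 7 d below the highest at 3 d and 1 pool at 3 d above the lowest at 7 d. In the controls it lay between 15.02 and 15.45 at 7 d (median 15.26, n = 6) and between 13.17 and 14.47 at 3 d (median 13.71, n = 6), with no overlap.

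The mean difference of contig14595 was 1.71 log2 units with silver, or 3.26-fold (limma F test, adjusted p = 2.2e-12), and 1.48 in CT and 1.49 in CTdisp. Arrays scanned on the same day gave the same direction: on the 2 days that held most arrays, the difference with silver was 1.86 (10 arrays at 7 d, 6 at 3 d) and 1.66 (12 at 7 d, 15 at 3 d). For contig03804 these within-day differences were 2.62 and 1.85. Over the 200, the within-day medians were -0.03 and -0.01.

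**Figure D5:**
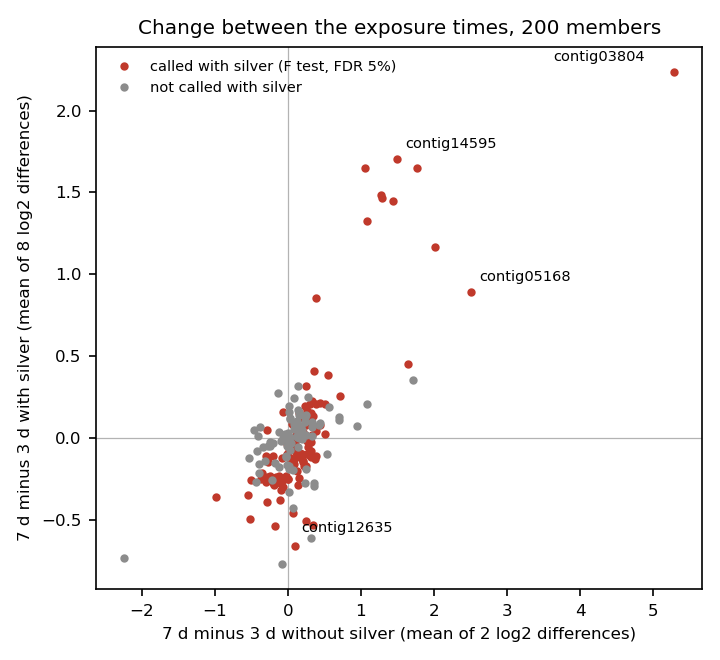
Log2 difference 7 d minus 3 d of each of the 200 probes, with silver on the vertical axis (mean of 8 contrasts) and without silver on the horizontal axis (mean of 2 contrasts); red points passed the F test with silver. Most points lie near 0, and the 9 probes above 1 on the vertical axis lie between 1.06 and 5.29 on the horizontal axis.

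The 10 highest probes moved the other way. All 10 had a mean difference between 7 d and 3 d with silver below 0, between -0.61 and -0.10. Of these, 8 were called, where 38.9% of all probes were, 16% with a mean difference below 0. Among the 200, 89 had a mean difference above 0. Alternative fits are given below for contig02249 alone. In the controls 0 of the 10 were called by the same kind of limma test, and 1 passed an unadjusted p of 0.05. The control test has 2 contrasts on 12 arrays and the silver test 8 contrasts on 48 arrays. These counts therefore cannot show whether the fall was particular to silver. contig02249 had a lowest, median and highest log2 signal of 17.80, 18.38 and 18.86 over the 24 silver pools at 7 d, and of 17.80, 18.69 and 19.44 over the 24 at 3 d, so that the times overlapped widely. In the controls these values were 18.44, 18.80 and 19.10 at 7 d and 18.08, 18.70 and 18.87 at 3 d (n = 6 each).

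The mean difference of contig02249 with silver was -0.29 (limma F test, adjusted p = 0.0010), and under Median normalization it was -0.34 (adjusted p = 0.020). Quantile normalization, which gives the brightest probe of every array the same value, left no difference for contig02249. Against control, the 10 probes gave 5 calls of higher and 3 of lower in 160 tests.

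The change of the silver effect between the times, tested as an interaction over 8 contrasts, was called for 60 of the 200, where 17.7% of all probes were (limma F test). It uses the control arrays that chose the probes, and nothing is read from the share. The count did not hold: Median normalization left 1 (2.7% of all probes), Quantile normalization 2 (3.09%) and slide as a block 36 (15.4%). Named probes among them were contig12635 (adjusted p = 0.0047), contig01918 (adjusted p = 0.011) and contig02249 (adjusted p = 0.020), none of which passed under Median normalization (limma adjusted p = 0.22, 0.56 and 0.65). For contig12635 the log2 fold change of PVP EC50 was -2.41 at 7 d and -0.74 at 3 d.

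Over the 48 silver arrays the 200 probes were positively related on the whole. The 19900 pairwise Pearson correlations had a median of 0.46 and quartiles of 0.27 and 0.61, with a range between -0.58 and 0.99. The arrays share groups, times and any whole-array shift, so these are descriptions. Grouped by average linkage, with a mean correlation of at least 0.8 within a group, 10 groups had 5 probes or more. The second largest, of 13 probes led by contig02249, held 8 of the 10 highest probes, and its median difference between 7 d and 3 d with silver was -0.23. The largest, of 14 probes, had a median of -0.17, with all 14 called.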

How the data were processed

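Whole-body RNA of 60 pools was measured on 60 one-colour Agilent arrays. The authors read the scans, per the file headers, with Agilent Feature Extraction 10.7.3.1. The deposited files give a background-corrected processed signal, an intensity per spot, with median foreground and background intensities and flags. Identifiers were used as the files give them. No gene annotation or sequence was used here.

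The members and lists were chosen with earlier results of these data known. As in the study's methods, only gene probes whose spots carried the flag for a positive, significant signal on each of the 60 arrays entered the fit (23179 of 43750), and log2 processed signals were normalized by the study's standard-vector condition-decomposition method (SVCD), rewritten in R 4.3.3, with 6587 probes without variation between conditions (Kolmogorov-Smirnov level 0.001). In all, 308 outlier spots, 10 of them in 10 members, were left out of the model. One limma 3.58.1 model held a mean per group over all 60 arrays, p-values were Benjamini-Hochberg adjusted over all kept probes, and F tests combined the contrasts of a comparison. The fit was tested on simulated data.

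Named probes were the 10 highest, the 2 on each side of the limit, the 2 called higher and the 2 called lower in most comparisons (ties by mean size), and the most and the least variable among silver groups. The design planned normexp on mean foreground signals, and median signals were used instead (offset 50). Other alternatives were Median and Quantile normalization, no filter, a filter on spots well above background, the methods' t-test, limma on 2 groups, blocks for slide, scan day and replicate number, other choices of members, and leaving out each array. Leaving out the 7 arrays of 2 small scan days, and all alternatives for the change of the silver effect between the times, were added after seeing the data. Arrays bear no depth; 3 arrays a group limit the precision.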

Additional observations from a re-analysis of the deposited data

Results flagged for a closer look

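For 3 of the 18 named probes the effect of silver differed between 7 d and 3 d, in an interaction F test of 8 contrasts (limma, adjusted over all 23179 probes). The adjusted p was 0.0047 for contig12635, whose fold change against control was below 0 in all 16 comparisons and called in 14, with log2 fold changes between -2.41 and -1.16 at 7 d and between -2.07 and -0.53 at 3 d. It was 0.011 for contig01918 and 0.020 for contig02249. The differences depended on the scaling: the adjusted p became 0.22, 0.56 and 0.65 for contig12635, contig01918 and contig02249 under Median normalization, and 0.16, 0.84 and 1 under Quantile normalization. With slide as a block the adjusted p was 0.071 for contig12635, 0.019 for contig01918 and 0.084 for contig02249. These alternatives were chosen after seeing the data. Explanations were not tested.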

How the results depend on the processing

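Of 255 counts and shares recomputed under other settings, 134 stayed within 1.5 times the main count, or within 1 SD for the share, and 121 moved; the cause was not tested. Counts below are members called in both directions, for many settings without the share of all probes, and nothing is read from them. Median normalization gave, at 3 d, 1 for AgNO3 EC50, 2 for AgNO3 EC20, 14 for PVP EC50, 7 for PVP EC20, 11 for NC EC50, 1 for NM300K EC50 and 3 for NM300K EC20, and 1 for NM300K EC50 at 7 d. It gave 0 for EC50 against EC20, 42 for 7 d against 3 d with silver and 0 for the dispersant. Quantile normalization gave 1, 8, 25, 8 and 15 for AgNO3 EC50, AgNO3 EC20, PVP EC50, PVP EC20 and NC EC50 at 3 d, 2 for NM300K EC20 at 3 d, 2 for AgNO3 EC50 and NC EC20 and 1 for NM300K EC50 at 7 d, and 0, 49 and 0 for dose, time with silver and dispersant. The normexp correction left 0 for AgNO3, NC and NM300K EC20 at 3 d, 2 for PVP EC50, 4 for PVP EC20 and 1 for NM300K EC50 at 3 d, 0 for AgNO3 and NM300K EC20, 1 for PVP and NM300K EC50 and 3 for NC EC20 at 7 d, and 0, 12, 8 and 0 for dose, time with silver, time without silver and dispersant. It also called 55.7% of all probes in the dose test and 60.4% in the time test with silver, against 6.67% and 38.9% before, so its counts in these tests are doubtful.

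Without a filter the counts were 0 for AgNO3, 34 and 7 for PVP EC50 and EC20, 13 and 3 for NC EC50 and EC20 and 1 for NM300K at 3 d. They were 2 and 0 for AgNO3 EC50 and EC20, 1 for PVP EC20, 2 for NC EC50, and 1 and 0 for NM300K EC50 and EC20 at 7 d, and 0, 28, 15 and 0 for the 4 F tests. Of all probes, 14.9% were then called for PVP EC50 and 9.01% for NC EC50 at 3 d. The time tests then called 12.3% of them with silver and 6.07% without silver. The filter on spots well above background gave 79 and 39 for AgNO3 EC50 and EC20, 23 for NC EC20 and 12 for NM300K EC50 at 3 d, 2 for AgNO3 EC50, 18 for PVP EC50 and 23 for NM300K EC50 at 7 d, 74 for time without silver and 26 for the dispersant. Among all probes under this filter, 32.7% and 20.6% were called for AgNO3 EC50 and EC20 at 3 d. For NC EC20 and NM300K EC50 at 3 d these shares were 21% and 3.68%. At 7 d they were 0.415% for AgNO3 EC50, 17% for PVP EC50 and 10.4% for NM300K EC50. Time without silver gave 30.8% and the dispersant 9.7%. With slide as a block the counts were 20 for AgNO3 EC50, 66 for PVP EC50, 61 for NC EC50 and 2 for NM300K EC50 at 3 d, 2 for AgNO3 EC50, 20 and 5 for PVP EC50 and EC20, 33 and 2 for NM300K EC50 and EC20 at 7 d, and 0 for dose. This block called 9.94%, 42.2% and 34.8% of all probes for AgNO3 EC50, PVP EC50 and NC EC50 at 3 d. At 7 d it called 16.6% for PVP EC50 and 7.67% for NM300K EC50. Scan day as a block gave 1 for NM300K EC20 at 3 d, 31 for NM300K EC50 at 7 d, 58 for dose and 1 for the dispersant. The shares of all probes with scan day as a block were 9.99% for NM300K EC50 at 7 d and 10.6% for dose. Leaving out the 7 arrays of 2 small scan days gave 5 for AgNO3 EC20, 8 and 2 for NM300K EC50 and EC20 at 3 d, 1 for PVP EC20, 23 and 0 for NM300K EC50 and EC20 at 7 d, and 0 for the dispersant.

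The methods' t-test gave 88 for PVP EC50 and 72 for NC EC50 at 3 d and 0 in the other 14 comparisons. With limma on 2 groups alone, 3 were left for PVP EC20 at 3 d and for PVP EC50 at 7 d, 0 for 12 others, and 100 and 87 for PVP EC50 and NC EC50 at 3 d. The share of signal was 21.7% for 100 and 33.7% for 400 members, against 27.4% for 200, and between 27.3% and 27.5% with an array left out. Choosing the members on CT or CTdisp alone moved no count by over 1.5 times.

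Leaving out single arrays gave, at 3 d, between 6 and 41 for AgNO3 EC50 (16 without its replicate 2), 1 and 21 for AgNO3 EC20, 94 and 118 for PVP EC50, 5 and 21 for PVP EC20 (10 and 11 without its replicates 2 and 3), 96 and 123 for NC EC50, 2 and 10 for NC EC20 (2 and 5 without its replicates 1 and 2), 1 and 9 for NM300K EC50 and 1 and 17 for NM300K EC20. For NM300K EC50 at 3 d it was 2, 9 and 3 without CTdisp replicates 1, 2 and 3 and 8 and 1 without its own replicates 1 and 3, and for NM300K EC20 it was 3, 8 and 1 without CTdisp replicates 1, 2 and 3 and 2, 17 and 1 without its own. At 7 d the counts lay between 1 and 3 for AgNO3 EC50, 0 and 2 for AgNO3 EC20, 3 and 8 for PVP EC50 (4, 3 and 4 without CT replicates 1, 2 and 3), 1 and 3 for PVP EC20, 1 and 2 for NC EC50, 1 and 7 for NC EC20 (7 without its replicate 3), 1 and 19 for NM300K EC50 (19 without its replicate 2) and 0 and 1 for NM300K EC20. The time tests gave between 98 and 132 with silver and between 36 and 51 without, the dispersant between 0 and 9 (9 without CTdisp replicate 2 at 3 d), and the dose test between 0 and 61. The dose count was 0 without PVP EC20 replicate 3, NC EC20 replicate 2 or 3 or NC EC50 replicate 3 at 3 d, 1 without PVP EC50 replicate 1 or 3, and 61 without AgNO3 EC20 replicate 3 at that time. It was 49 without NM300K EC20 replicate 2 at 3 d, 48 without NC EC20 replicate 3 at 7 d, and between 2 and 19 without 1 of 14 further arrays.

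With the replicate number as a block, no count moved by over 1.5 times (121 became 120 for PVP EC50 and 127 became 125 for NC EC50 at 3 d, and dose, time with and without silver and dispersant gave 31, 116, 46 and 2). For the change of the silver effect between the times, whose alternatives were chosen after seeing the data, the count of 60 became 1 with Median normalization, 2 with Quantile normalization, 36 with slide, 65 with scan day and 61 with the replicate number as a block. The numbers share no stated origin, and 20 of 48 correlations of same-numbered deviations were over 0.1 (range -0.51 to 0.46).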

Other observations

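Single spots stood far below the rest for a few of the 200 probes, without an outlier flag in the files. In 7 probes the dimmest array was more than 4-fold below the next. contig06503 (rank 197) had a processed signal of 215 with AgNO3 EC50 at 7 d, replicate 2, and 8576 on the next dimmest array, and contig20180 (rank 144) had 347 in CT at 7 d, replicate 1, and 12768 on the next. In 4 of the 7, contig22940, contig07587, contig27138 and contig23288, the low array was AgNO3 EC20 at 3 d, replicate 1, with contig22940 at 4135 there and at 49995 on the next. Of the 7 dimmest spots, 5 lay on the 3 arrays, all of slide 11, that were read on another scanner than the other 57, whose part in the low spots was not tested. These 7 probes were chosen after their values were seen.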
